A study of Mus musculus with 2 samples.

Results

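The distal end of mouse chromosome 2 holds an array of near-identical zinc finger genes, and it is described here in 1 WT and 1 H3.3 G34R embryonic stem (ES) cell library. The members were all rows of the expression tables on chromosome 2 whose start lay between 174.7 and 179.8 Mb in the mm9 assembly, which gave 63 genes of 26127 in all. Of these, 39 were cluster-named genes, whose names begin with Gm14, Gm2 or Gm4. A further 10 genes lay among or beside them under other names and shared exon sequence with the array (Gm8923, Gm11009, 2210418O10Rik, Gm11008, Gm11007, Gm6710, Gm8898, C330013J21Rik, Etohi1 and Zfp931). These 49 genes are called the cluster genes below. The other 14 were 13 single-copy neighbours on the far side of the array and Gm17513, a long non-coding RNA antisense to Etohi1 that was at 0.01 RPKM in both libraries. The interval was chosen by the RPKM of these same 2 libraries, in which a run of lower genes was already known there, so the values below describe the members and do not test them.

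Both lines were mouse ES cells of strain 129S1/SvImJ under passage 20, grown in medium with foetal calf serum and leukaemia inhibitory factor. The G34R cells carried a targeted glycine-to-arginine change at residue 34 of histone H3.3 in 1 of the 2 copies of H3f3a, expressed from that gene's own promoter after Cre recombinase had removed a conditional wild-type cassette. Their other H3f3a copy and both copies of H3f3b, the second gene for H3.3, were wild type, and the WT cells carried no such allele. Each line gave 1 library, so no value has a replicate, a line and its mutation cannot be told apart, and no difference was tested.

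Kruppel-associated box (KRAB) zinc finger proteins are DNA-binding repressors found in tetrapods. An array of C2H2 zinc fingers, each folded around a zinc ion, reads the DNA, and the KRAB domain at the other end of the protein binds the co-repressor Trim28. Trim28 brings in the histone methyltransferase Setdb1, which lays down H3K9me3, a mark of silent chromatin that HP1 proteins read. Many of these genes sit in tandem arrays made by local duplication, several of which keep transposable elements silent in ES cells, and their copies can be almost the same in sequence.

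The shared sequence of the array is shown first, because it decides how far 1 gene can be told from the next. In the coding sequences annotated on mm9, a C2H2 finger was found in 41 of the 49 cluster genes (median 13 fingers, from 1 in 2210418O10Rik and Gm14296 to 25 in Gm14295), against 3.53% of all 22635 translated genes. The KRAB A box, the part of the domain that contacts Trim28, was found in 45 of them, against 1.01% of all genes. No single-copy neighbour had either. A 60-base stretch coding for this box could be placed in 48 cluster genes and took only 13 forms, at most 6 bases from the commonest. Some of these forms are printed 5′ to 3′ on the coding strand, with capitals at bases that differ from the commonest form. They are the commonest, the other form of the same frequency, those of 3 well expressed genes, and the diverged form.
Gm14440 (the form of 14 genes, chr2:175108826-175108885, plus strand): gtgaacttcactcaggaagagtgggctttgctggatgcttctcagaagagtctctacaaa
Gm4631 (the form of a further 14 genes, chr2:175153013-175153072, minus strand): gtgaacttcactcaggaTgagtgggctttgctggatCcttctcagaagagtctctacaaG
Gm14443 (also Gm14412, chr2:174997389-174997448, minus strand): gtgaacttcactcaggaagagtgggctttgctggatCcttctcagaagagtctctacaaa
Gm14399 (also Gm14326, chr2:174958737-174958796, minus strand): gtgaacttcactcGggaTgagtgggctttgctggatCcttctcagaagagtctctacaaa
Gm14401 (chr2:176868975-176869034, plus strand): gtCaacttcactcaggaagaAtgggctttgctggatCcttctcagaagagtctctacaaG
Gm11009 (also Gm14408, chr2:175375272-175375331, plus strand): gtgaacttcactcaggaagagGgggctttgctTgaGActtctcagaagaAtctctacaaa
The diverged form of Gm11009 and Gm14408 recurred with 1 further change in C330013J21Rik. These 3 genes had no finger in their annotated proteins and did not match the KRAB pattern that was searched.

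The fingers were shared as well. The commonest 50-base coding window, as long as 1 sequencing read, occurred at 122 places in the genome, all of them inside the interval, and in exons of 41 members. It spans the linker between neighbouring fingers. The windows nearest to it among single-copy coding windows are printed below it, with capitals at bases that differ. They come from the 5 cluster genes with the largest share of single-copy windows. They differed at 1 to 7 bases.
Gm14444 (122 places, chr2:174844006-174844055, plus strand): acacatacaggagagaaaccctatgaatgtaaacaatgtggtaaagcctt
Gm14403 (chr2:177294093-177294142, plus strand): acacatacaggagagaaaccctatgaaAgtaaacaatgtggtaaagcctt
Gm14412 (chr2:177099463-177099512, minus strand): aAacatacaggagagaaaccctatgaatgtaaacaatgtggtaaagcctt
Zfp931 (chr2:177802542-177802591, minus strand): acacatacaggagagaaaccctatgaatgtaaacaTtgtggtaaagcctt
Gm14443 (chr2:174995650-174995699, minus strand): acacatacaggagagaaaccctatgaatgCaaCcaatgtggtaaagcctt
Gm14401 (chr2:176871533-176871582, plus strand): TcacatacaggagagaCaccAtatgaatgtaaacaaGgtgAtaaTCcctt
In these windows a single base separated Gm14403, Gm14412 and Zfp931 from the 122 places of the commonest window. The ES cells were of strain 129S1/SvImJ and the reads were aligned to mm9, the C57BL/6J assembly, so differences between the strains also entered this assignment and were not measured.

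Some promoters of the array were near copies of each other as well. Of the 49 cluster genes, 37 had an annotated 5′ untranslated region, and the 250 bases before their start were compared. Over the 666 pairs the identity ranged from 43.6% to 100% with a median of 70.4%, and 92 pairs were at least 90% identical. The windows were aligned end to end, so a shift of the annotated start counts as a difference. The windows of 2210418O10Rik and Gm14296 were the same, as were those of Gm14436 and Gm14306. All 37 held CCAAT on one strand or the other, the core of a promoter element bound by NF-Y, against 35.0% of 22196 protein-coding promoters. On the gene's own strand 34 of 37 held it (20.0% of all promoters), a median of 67 bases before the start. The longer run CCAATCAGAA, taken from Gm14403, was in 30 of 37 and in 0.833% of all promoters. None of the 37 held a TATA box (TATAAA, in 12.4% of all promoters), a GC box (GGGCGG, in 39.6%) or an E-box (CACGTG, in 6.53%) on either strand. They had a median of 2 CG pairs, against 8 over all promoters. Windows are printed on the gene's strand for the 2 largely single-copy genes with the lowest ratios, Gm14403 and Gm14401, and for Zfp931, the expressed single-copy-rich gene with the ratio nearest to 0. Capitals mark CCAAT and its reverse complement ATTGG.
Gm14403 (chr2:177282670-177282919, plus strand): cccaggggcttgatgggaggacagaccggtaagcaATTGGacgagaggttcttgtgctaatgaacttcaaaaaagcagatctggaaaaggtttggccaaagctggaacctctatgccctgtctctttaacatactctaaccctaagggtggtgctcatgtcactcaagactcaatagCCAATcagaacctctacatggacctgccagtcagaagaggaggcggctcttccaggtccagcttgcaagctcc
Gm14401 (chr2:176858775-176859024, plus strand): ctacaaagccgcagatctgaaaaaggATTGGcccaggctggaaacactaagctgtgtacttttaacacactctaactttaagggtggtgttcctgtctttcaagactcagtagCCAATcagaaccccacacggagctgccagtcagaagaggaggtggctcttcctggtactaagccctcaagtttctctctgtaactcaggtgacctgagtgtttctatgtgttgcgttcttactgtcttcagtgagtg
Zfp931 (chr2:177813182-177813431, minus strand): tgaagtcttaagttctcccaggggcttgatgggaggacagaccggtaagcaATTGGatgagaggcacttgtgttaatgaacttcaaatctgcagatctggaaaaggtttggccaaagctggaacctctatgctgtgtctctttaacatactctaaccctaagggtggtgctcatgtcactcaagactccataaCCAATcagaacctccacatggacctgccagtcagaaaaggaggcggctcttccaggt
Each of the 3 windows holds ATTGG upstream of CCAAT, and the windows differ at other bases. The match of letters is a description and says nothing of binding.

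Expression was deposited as RPKM (read density scaled for transcript length and library size), which is meant to allow comparison between genes of different length. Among the copies of the array, reads that were dropped or shared limit this comparison. The depth, read from the steps that single reads leave in the RPKM of short genes, was about 87.7 M reads in WT and 72.2 M in G34R, so that 1 read on a 1 kb transcript was worth 0.0114 and 0.0138 RPKM. All 8 ES cell markers were expressed, from 25.14 to 707.95 RPKM in WT and from 43.71 to 647.81 in G34R, and Nanog alone among them was past 2-fold, at 127.07 and 52.24 RPKM. The 8 markers of feeder fibroblasts summed to 1.82 and 1.14 RPKM, with Dcn, Lum and Postn at 0 in both libraries. H3f3a, the targeted gene, was at 8.17 RPKM in WT and 4.89 in G34R, a value that does not separate its 2 alleles.

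The cluster genes were at low RPKM in WT cells and at lower RPKM in G34R cells. STAR, the aligner, by default drops reads that fit more than 10 places, so these levels can leave out part of the array's RNA. Summed over the 39 cluster-named genes, about 13598 reads in WT became 6584 in G34R, which is 155 and 91.1 reads per M sequenced. The log2 ratio of these sums was -0.77, a ratio of 0.588, with an exact 95% counting interval from 0.571 to 0.605. This interval covers counting error only, because amplified reads are not independent molecules and the spread between cultures was not measured. This sum does not depend on which of the 39 genes received a read, but reads could still pass to the 10 other-named copies. Over all 49 cluster genes the log2 ratio of summed reads was -0.74, a ratio of 0.601 (0.584 to 0.617). In bulk RNA, fewer cells that express a gene and less RNA per cell cannot be told apart.

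Of the 39 cluster-named genes, 28 reached 0.25 RPKM in 1 library and the other 11 stayed below it. All 28 were lower in G34R, against 55.0% of all 13366 genes at this level. A gene is called below when it reached 0.25 RPKM and its ratio passed 2-fold. By this rule 7 of the 28 were lower and 0 higher, against 9.64% and 5.79% of all genes. The ratio was taken as log2 (G34R/WT RPKM), after raising any smaller value to 0.01 RPKM. Its median over the 28 was -0.73, with quartiles at -0.93 and -0.54 and a range from -1.14 to -0.34. The median over all genes was -0.07, with quartiles at -0.42 and 0.27. The distance between the quartiles of the 28 was 0.40, against 0.69 over all genes, but copies that share reads are not independent. The 7 other-named cluster genes at this level were more scattered, with a distance of 0.80 and a range from -2.55 to 0.87. As the interval was chosen for its lower genes, these shares describe the choice as much as the cells.

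**Figure D1:**
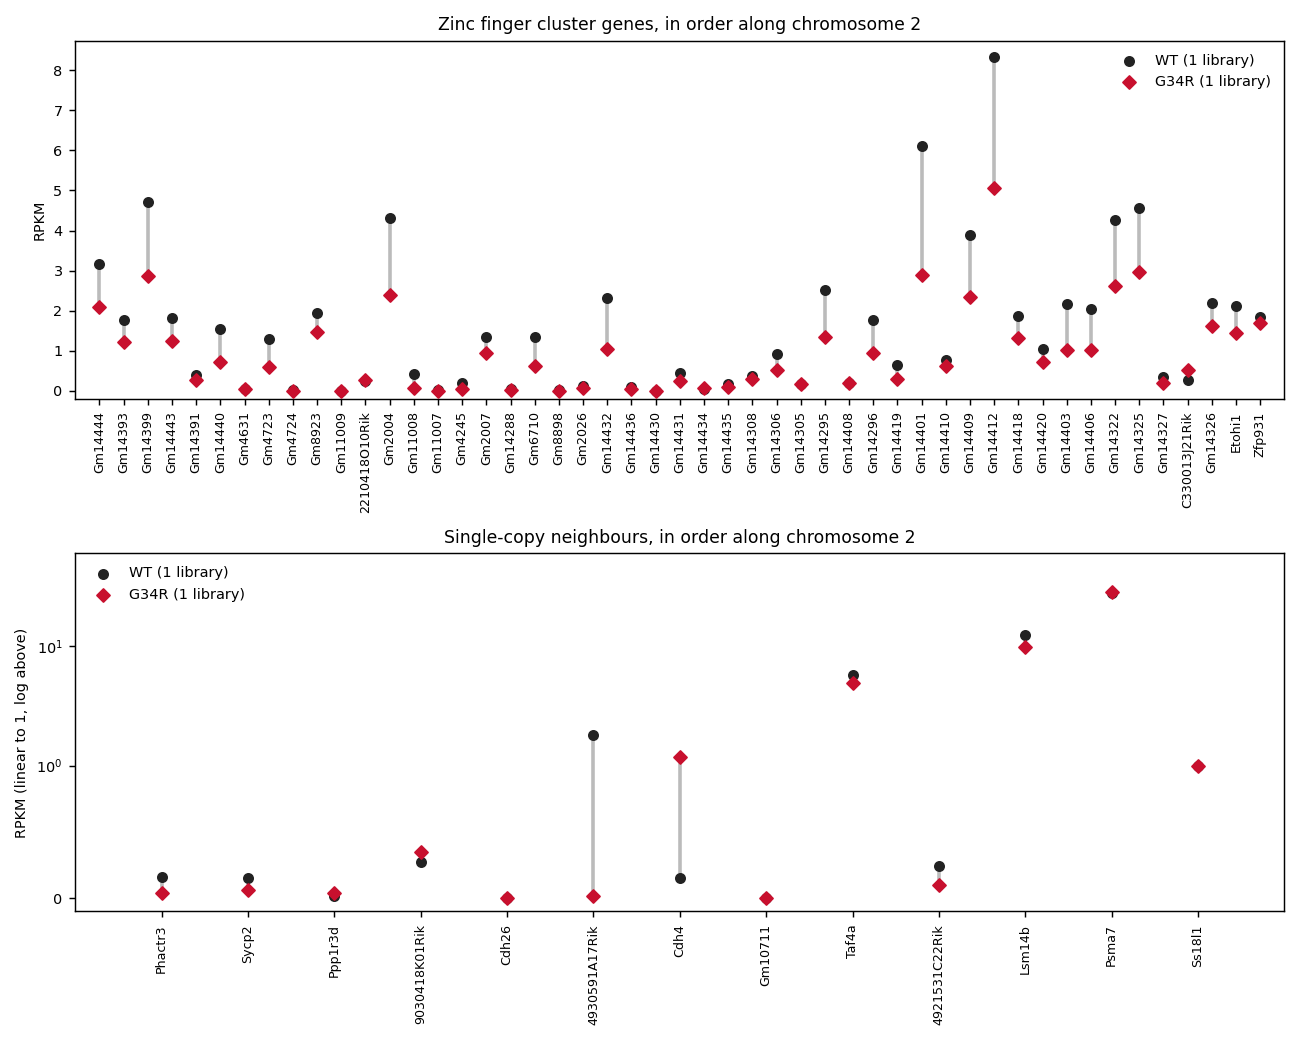
RPKM (vertical axis) of the 49 cluster genes, upper panel, and the 13 single-copy neighbours, lower panel, in their order along chromosome 2, with circles for the WT library and diamonds for the G34R library (1 each, no error bars). The diamond lies below the circle in 43 of the 49 cluster genes, with no filter on level and no like share counted over all genes. Among the neighbours Cdh4 lies far above and 4930591A17Rik far below.

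The member of the array with the highest RPKM was Gm14412 (chr2:177099225-177109012, minus strand), whose protein was annotated with a KRAB box and 15 fingers. Its level was 8.32 RPKM in WT and 5.06 in G34R, a log2 ratio of -0.72 (counting interval -0.86 to -0.57). Of its 1431 windows of 50 exon bases, 858 occurred once in mm9, but where its reads fell among the windows was not examined. In Gm14412 11.5% of windows recurred at more than 10 places, against up to 83.5% in the array. RPKM is scaled for the whole transcript, so the order of members by RPKM need not be their order of expression. Gm14401 (chr2:176859025-176872052, plus strand), with 5 fingers and 54.7% single-copy windows, was at 6.10 and 2.90 RPKM, a log2 ratio of -1.07 (-1.28 to -0.87). The intervals of these 2 genes just miss each other, a comparison picked after the values were seen. They cover counting error only and leave out how shared reads were placed.

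A second tier of genes stood between 3 and 5 RPKM in WT. Gm14399, with 18 fingers, was at 4.72 RPKM in WT and 2.86 in G34R. Gm14325 was at 4.57 and 2.96 RPKM. Gm2004, with 17 fingers and no single-copy window, was at 4.31 and 2.39 RPKM. All 3 were lower by less than 2-fold, by 1.65, 1.54 and 1.80 times. Gm14322 was at 4.26 and 2.62 RPKM. Gm14409, with 8 fingers and no KRAB box found in its annotated protein, was at 3.88 and 2.33 RPKM. Gm14444, the first gene of the array, was at 3.16 and 2.10 RPKM. The log2 ratios of this tier ran from -0.85 (Gm2004) to -0.59 (Gm14444), on either side of the summed ratio of all cluster genes (-0.74). Across the 35 cluster genes with at least 0.25 RPKM, the counting intervals of 19 held that summed ratio and those of the others did not.

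The 9 cluster genes past 2-fold were spread through the array and, with 1 exception, only just past the threshold. Gm14432 was at 2.31 RPKM in WT and 1.05 in G34R (log2 ratio -1.14). Gm14403 (chr2:177282920-177297014, plus strand), which had the largest single-copy share of the array at 73.0%, was at 2.16 and 1.01 RPKM (-1.10, interval -1.29 to -0.91). Gm14406 was at 2.05 and 1.01 RPKM (-1.02). Each of these intervals holds the threshold of -1, so counting error alone leaves the side of the threshold unsettled. Gm14440 was at 1.54 and 0.73 RPKM (-1.08), Gm6710 at 1.35 and 0.63 RPKM (-1.10), and Gm4723 at 1.29 and 0.60 RPKM (-1.10). Gm14419, with the lowest RPKM of the cluster-named genes past 2-fold, was at 0.64 and 0.30 RPKM (-1.09). The exception was Gm11008, an annotated KRAB box with no finger, at 0.41 RPKM in WT and 0.07 in G34R (-2.55). Gm11008 rests on an estimated 37 reads in WT and 5 in G34R, and its interval ran from -4.31 to -1.26. Gm14401 completes the 9. Of these 9, 6 were among the 15 genes at 0.25 RPKM with no single-copy window. A further 1 was among 15 genes with 1 to 49% single-copy windows, and 2 were among 5 genes with at least 50%. The values of the 6 depend on how shared reads were placed, which the intervals leave out.

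The remaining genes with at least 1 RPKM in 1 library were lower by less than 2-fold. Gm14295, with 25 fingers the longest protein of the array, was at 2.51 RPKM in WT and 1.35 in G34R (log2 ratio -0.89). Gm14296, whose exons of 9870 bases took 10.1% of all cluster reads in WT and 8.95% in G34R, was at 1.76 and 0.94 RPKM (-0.90). Gm14326 was at 2.18 and 1.62 RPKM (-0.43). The interval of Gm14326, from -0.63 to -0.23, does not meet that of Gm14296, from -1.04 to -0.77, a pair picked after the values were seen. Gm14326 had 13.3% single-copy windows and Gm14296 had none. Both ratios therefore depend on how shared reads were placed, which the intervals leave out. Gm8923 was at 1.94 and 1.47 RPKM (-0.40), Gm14418 at 1.86 and 1.32 RPKM (-0.49), and Gm14443 at 1.82 and 1.24 RPKM (-0.55). Gm14393 was at 1.77 and 1.22 RPKM (-0.54), Gm2007 at 1.35 and 0.94 RPKM (-0.52), and Gm14420 at 1.04 and 0.72 RPKM (-0.53). These 6 were lower by 1.32 to 1.47 times. Etohi1, a KRAB zinc finger gene with 12 fingers, was at 2.12 and 1.44 RPKM (-0.56).

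All 25 cluster genes with at least 1 RPKM in 1 library, some of them in WT alone, were lower in G34R. They were lower by 1.08 to 2.20 times, with a median of 1.64. Over all 13366 genes with at least 0.25 RPKM, 55.0% were lower, and the share at 1 RPKM was not counted. The counting interval of 24 of the 25 lay wholly below 0, a share that was also not counted over all genes. The one whose interval held 0 was Zfp931 (chr2:177802400-177813181, minus strand), the last gene of the array, which has 7 fingers and a KRAB box. It was at 1.84 RPKM in WT and 1.70 in G34R, a log2 ratio of -0.11 (-0.34 to 0.11). With 63.9% single-copy windows, Zfp931 could be told from the array about as well as Gm14412 and Gm14403, and its interval does not reach theirs. This comparison was picked after the values were seen.

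**Figure D2:**
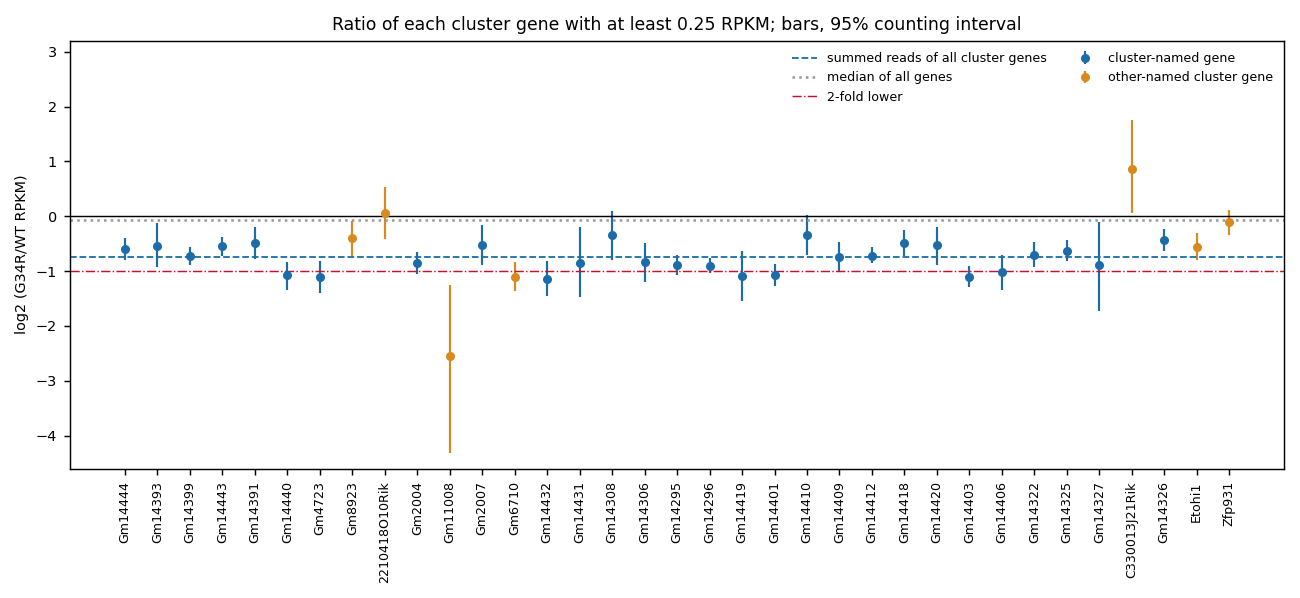
log2 (G34R/WT RPKM) of the 35 cluster genes with at least 0.25 RPKM in 1 library, in their order along chromosome 2, with bars for the exact 95% counting interval and lines at the summed reads of all cluster genes (-0.74), the median of all genes (-0.07) and 2-fold lower. The intervals of 30 genes lie wholly below 0 (not counted over all genes), C330013J21Rik lies above 0, and Gm11008 stands apart below on few reads.

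Not every cluster gene was lower. Among all 35 cluster genes with at least 0.25 RPKM, 33 were lower, against 55.0% of all genes at this level. Intervals were not counted over all genes. For the 35, the intervals of 30 lay wholly below 0, those of 4 held 0 and that of 1 lay above it. The last was C330013J21Rik, at 0.28 RPKM in WT and 0.51 in G34R (log2 ratio 0.87, interval 0.05 to 1.75, about 21 and 32 reads). It overlaps Gm14327 on the other strand, which was at 0.35 and 0.19 RPKM, and the counting used strand. 2210418O10Rik was at 0.25 and 0.26 RPKM (0.06), although its promoter window is identical to that of Gm14296 (-0.90) and all of its exon windows recur in Gm14296. Summed over this pair, the log2 ratio was -0.83. Of the other genes with the diverged KRAB stretch, Gm14408 was at 0.19 and 0.20 RPKM, on 7 and 6 reads, and Gm11009 was at 0 in both, so neither gives a usable ratio.

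The ratios were also set beside the KRAB forms, with no test. The 14 genes with the commonest form had a median log2 ratio of -0.85 over the 9 with at least 0.25 RPKM, and the 14 with the next form had -0.85 over 7. Forms held by fewer genes had other medians, such as -1.10 over Gm14391, Gm14403 and Gm6710 and -0.49 over Gm14322, Gm14418 and Zfp931. The ratio showed little relation to the number of fingers (Spearman's rho -0.21 across 31 genes), to the WT level (rho -0.20 across 35 genes) or to the position along the array (rho 0.14 across 35 genes). These are descriptions across genes that share 2 libraries and much of their sequence. Summed reads were lower from both strands, with a log2 ratio of -0.85 (-0.91 to -0.79) over the 23 genes of the plus strand and -0.65 (-0.71 to -0.60) over the 26 of the minus strand.

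How reads were shared among copies bears on every single value above. Of the 49 cluster genes, 29 had no 50-base exon window that occurs once in mm9. The share of windows that recurred at more than 10 places had a median of 42.9% over the 49 genes and ranged from 9.21% to 83.5%, 10 places being the most at which STAR by default still aligns a read. A read with fewer places was kept at 1 of them as its primary alignment. The result is plain in 3 genes whose exon sequences are identical. Gm2007 (chr2:175740669-175750551) was at 1.35 RPKM in WT and 0.94 in G34R, Gm11007 (chr2:175643110-175652992) at 0.03 and 0, and Gm14430 (chr2:176181277-176191160) at 0 in both. Nothing in their exons lets a read of this length choose between them. Their sum had a log2 ratio of -0.56 (-0.92 to -0.20), but it is not free of the copies either, since all of their windows also occur in Gm4724, which was at 0.03 RPKM in WT and 0 in G34R. A second identical set, Gm4245 and Gm14431, was at 0.20 and 0.45 RPKM in WT and 0.05 and 0.25 in G34R, with a summed log2 ratio of -1.12 (-1.70 to -0.56). All windows of Gm4245 recur in Gm4723, so this sum also depends on how reads were placed between the pair and that gene. Gm14444 and Gm14406, far apart in the array, share 94.2% of the windows of Gm14406 and had a summed log2 ratio of -0.72.

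Summed reads were also taken by single-copy share, counting all reads of each gene and not only those in single-copy windows. The 5 cluster genes with at least 50% single-copy windows (Gm14403, Gm14443, Zfp931, Gm14412 and Gm14401) held about 3835 reads in WT and 1890 in G34R, a log2 ratio of -0.74 (-0.82 to -0.66). Within these 5 the single ratios ran from -1.10 (Gm14403) to -0.11 (Zfp931). The 15 genes with a smaller single-copy share had -0.64 (-0.71 to -0.58), and the 29 with none had -0.84 (-0.92 to -0.77). How the sharing of reads bears on these sums was not tested. Across the 35 genes with at least 0.25 RPKM, the log2 ratio and the single-copy share were weakly related (Pearson's r 0.12, Spearman's rho 0.21), given as a description.

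**Figure D3:**
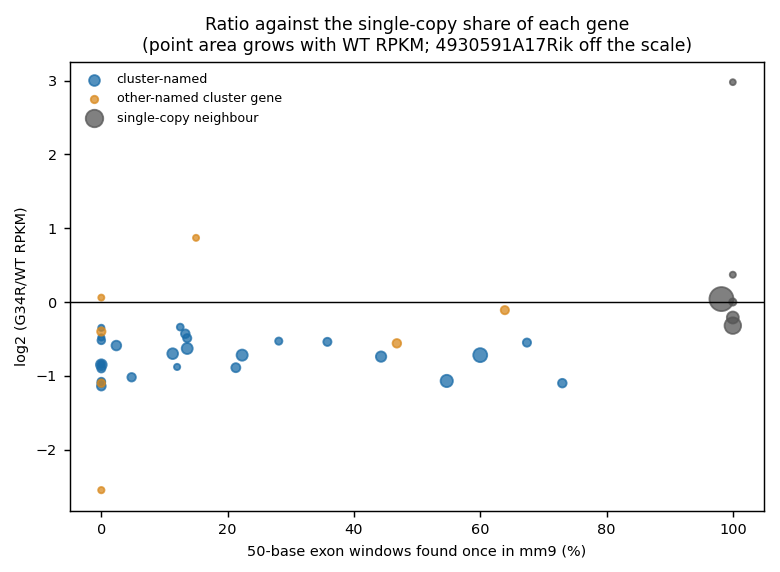
log2 (G34R/WT RPKM) against the percent of each gene's 50-base exon windows found once in mm9, for cluster genes and single-copy neighbours with at least 0.25 RPKM in 1 library, with the area of a point growing with its WT RPKM and 4930591A17Rik (-6.49) off the scale. Cluster genes lie mostly between -1.14 and -0.34 from 0% to 73.0% single-copy windows, while the neighbours at this level, at 98.2% or more, include Psma7 at 0.04 and Cdh4 at 2.98.

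The other cluster genes were under 1 RPKM, a level that leaves out reads that fit more than 10 places. Between 0.25 and 1 RPKM stood 10 cluster genes, 6 of which were named above. Of the other 4, Gm14306 was at 0.93 RPKM in WT and 0.52 in G34R, and Gm14305, which overlaps it on the same strand, was at 0.17 and 0.16. Gm14410 was at 0.77 and 0.61 RPKM, Gm14391 at 0.39 and 0.28 RPKM, and Gm14308 at 0.37 and 0.29 RPKM. Below 0.25 RPKM lay 14 cluster genes, of which 10 were lower in G34R, 2 higher and 2 at 0 in both. Where a gene of this kind was at 0, the limit of 3 reads on a 1 kb transcript corresponds to 0.0342 RPKM in WT and 0.0415 in G34R.

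Beyond Zfp931 the interval holds genes of other families. Of 13 single-copy neighbours, 7 reached 0.25 RPKM, with a median log2 ratio of 0.00 and 1 lower and 1 higher past 2-fold. Psma7 (chr2:179771078-179777138), an alpha subunit of the 20S proteasome, was at 27.91 RPKM in WT and 28.61 in G34R. Lsm14b, an RNA-binding protein of messenger ribonucleoprotein particles, was at 12.39 and 9.92 RPKM. Taf4a, a subunit of the general transcription factor TFIID, was at 5.71 and 4.94 RPKM. These 3 most highly expressed neighbours had log2 ratios of 0.04, -0.32 and -0.21, all nearer to 0 than the summed reads of the array. The counting intervals of Lsm14b (-0.40 to -0.24) and Taf4a (-0.30 to -0.12) lay wholly below 0, and that of Psma7 (-0.01 to 0.08) held it. Ss18l1, a subunit of neuronal BAF chromatin remodelling complexes and the last gene inside the interval, was at 1 RPKM in both libraries. 9030418K01Rik was at 0.27 and 0.35 RPKM.

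The largest differences of the interval were in 2 neighbours and went in opposite directions. Cdh4 (chr2:179177136-179634078, plus strand), which encodes the cell adhesion protein R-cadherin, was at 0.15 RPKM in WT and 1.18 in G34R, a ratio of 7.87 (counting interval 6.32 to 9.86) on about 95 and 615 reads. The gene next to it, 4930591A17Rik (chr2:179149641-179151587, plus strand), was at 1.80 RPKM in WT and 0.02 in G34R. That is a log2 ratio of -6.49 (-11.89 to -4.07) on about 116 reads and 1 read. Of the neighbours under 0.25 RPKM, Phactr3, a regulator of protein phosphatase 1 and actin, was at 0.16 and 0.04 RPKM, 4 times lower (log2 interval -2.76 to -1.24) on about 90 and 19 reads. Sycp2, of the axis of meiotic chromosomes, was at 0.15 and 0.06 RPKM, a log2 ratio of -1.32 (-2.01 to -0.65) on about 78 and 26 reads. These single-copy genes lie directly beside the array and were lower with intervals wholly below 0, although too weak to be called. Also under 0.25 RPKM was 4921531C22Rik at 0.24 and 0.10 RPKM, a log2 ratio of -1.26 (-2.26 to -0.37) on about 41 and 14 reads. Ppp1r3d was at 0.02 and 0.04 RPKM. Cdh26 and Gm10711 were at 0 in both. At the edges of the interval, Gm14444 was the first gene inside (3.16 and 2.10 RPKM) and Gm14616 the last before it (0 in both). After Ss18l1 the next gene outside was Gtpbp5, at 1.63 and 1.04 RPKM (log2 ratio -0.65).

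Set beside other genes, the array was lower as a group but not by as much as the zinc finger interval of chromosome 4. Over 335 Zfp-named genes outside the interval with at least 0.25 RPKM the median log2 ratio was -0.14, with 8.96% lower past 2-fold. Over 1021 other genes of chromosome 2 it was also -0.14, with 8.72% lower. In the chromosome 4 interval (starts from 145.0 to 147.0 Mb), 24 of 32 genes had at least 0.25 RPKM, with a median of -1.66 and 19 past 2-fold lower. That set takes every row of its interval and was chosen with earlier results of these data known. The like set of chromosome 2, the 42 of all 63 members at this level, had a median of -0.61. The chromosome 4 genes also had higher RPKM in WT, with a median of 18.8 over all 32 against 1.04 over the 49 cluster genes of chromosome 2. Reads that fit more than 10 places are left out of both values. The share of such windows, a median of 42.9% over the 49 cluster genes, was not counted for chromosome 4. These differences between sets have no test, since each set has 1 library a line.

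**Figure D4:**
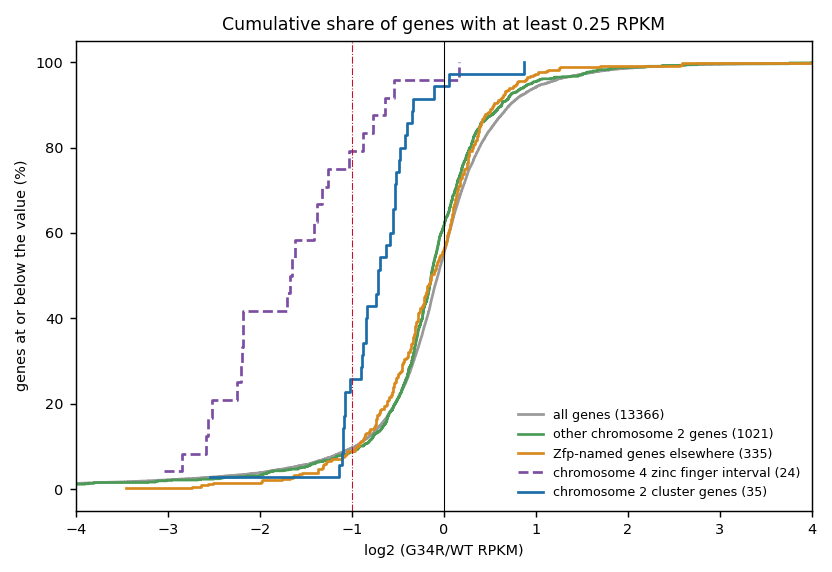
Cumulative percent of genes (vertical axis) at or below each log2 (G34R/WT RPKM), for genes with at least 0.25 RPKM in 1 library, with vertical lines at 0 and at 2-fold lower and the number of genes in brackets. The 35 chromosome 2 cluster genes (median -0.72) lie to the left of all genes (-0.07) and of Zfp-named genes elsewhere (-0.14), and to the right of the chromosome 4 interval (-1.66).

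The pathway of KRAB zinc finger repression was described from a list of 24 genes, all in the tables and all above 0.25 RPKM. The list holds partners and readers, chromatin factors such as Atrx and Daxx, and enzymes that add or remove marks. It also holds the KRAB zinc finger genes Zfp57 and Zfp809. The median log2 ratio of the 24 was -0.02, with 2 higher and 1 lower past 2-fold, where the shares over all genes were 5.79% and 9.64%. Trim28, the co-repressor that binds the KRAB box, was at 326.77 RPKM in WT and 222.49 in G34R, and Setdb1 was at 15.06 and 15.25 RPKM. Past 2-fold higher were Dnmt1, the maintenance DNA methyltransferase, at 8.14 and 44.43 RPKM, and Suv39h1, an H3K9 methyltransferase, at 1.57 and 3.36 RPKM. Zfp809, a KRAB zinc finger protein that silences retroviral elements, was past 2-fold lower, at 10.51 and 4.49 RPKM. Their part in the level of the array was not tested.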

How the data were processed

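Stranded total RNA libraries of 50 bp single-end reads were made from 1 WT and 1 G34R culture. The authors used STAR 2.4.2a at default settings for alignment to mm9, quantified primary alignments over merged isoforms in Seqmonk with correction for transcript length, and deposited RPKM values. Members, lists and comparison sets were chosen with earlier results of these data known. Ratios were log2 (G34R/WT RPKM) with a floor of 0.01 RPKM, and calls needed 2-fold and 0.25 RPKM in 1 library. With 1 library per line no test was possible. Depth came from the spacing of low RPKM values in 2812 genes of 1 exon (those under 800 bp and 6 reads), reads from RPKM, depth and GENCODE M1 exon length (all 63 members matched), and exact Clopper-Pearson 95% intervals from these reads, which cover counting error only.

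All 50-base exon windows of members were counted in mm9 on both strands. A single-copy neighbour had over 90% of windows found once, or none to count. Fingers were counted as C, 2 to 4 residues, C, 12 residues, H, 3 to 5 residues, H in any annotated isoform, and the KRAB A box by a residue pattern. Promoter motifs were searched on both strands of the 250 bases before the annotated start. Named were cluster-named genes with at least 1 RPKM, members past 2-fold, other-named members with at least 0.25 RPKM, and the genes at the ends. Lower members were added where a comparison of copies or classes needed them. Scripts were tested on simulated data. Alternatives were other pseudocounts, scalings, filters, folds and cluster definitions. The work was done in Python 3.11.15 with SciPy 1.17.1 for intervals and NumPy 2.4.6 and pandas 2.3.3 for tables.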

Additional observations from a re-analysis of the deposited data

How the results depend on the processing

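The depth was inferred, each line had 1 library, and copies shared reads, so single values of the array carry an error that was not measured. The number of cluster-named genes past 2-fold lower was 7 of 28 and stayed at 6 or 7 under 0.01 RPKM added, both rescalings and the filter of 1 RPKM, with 10 without a filter. It was 3 with 0.1 RPKM added, 0 with 1 RPKM added, 19 at 1.5-fold and 0 at 3-fold, and 2 among cluster-named genes with at least 20% or with at least 50% single-copy windows (9 and 4 genes). The median log2 ratio of -0.73 became -0.46 with 1 RPKM added, which shrinks low genes by construction, -0.68 with equal RPKM sums, -0.67 when centred on the median of genes with at least 1 RPKM, and -0.90 with at least 50% single-copy windows. The log2 ratio of summed reads, -0.77, became -0.72 and -0.71 under the same 2 scalings and -0.83 with at least 50% single-copy windows. Neighbours past 2-fold numbered 2 (1 lower and 1 higher), but 1 with 1 RPKM added (lower) and 5 without a filter (4 lower and 1 higher). No value changed direction among these or the called members. Of the 36 named members, 16 left their counting interval with 1 RPKM added, 2 with 0.1 RPKM added and 1 when centred. The definitions by single-copy share and by finger or KRAB box were added after the data were seen. No cluster-named gene had under 5% of its windows shared with another gene, and no RefSeq proteins were used here, so those 2 definitions were not run. No paired analysis was possible because each line had 1 library.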
